A study of Mus musculus with 14 samples.

Results

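The 10 glutathione S-transferase genes described here were taken by symbol: the alpha class genes Gsta1, Gsta2, Gsta3 and Gsta4, the mu class genes Gstm1, Gstm2, Gstm3 and Gstm4, the pi class gene Gstp1 and the theta class gene Gstt1. All 10 were found among the 54532 genes of the count table, and all 10 were among the 17874 genes that passed the low-count filter and were tested. Bulk RNA sequencing had been run on 14 liver libraries of C57BL/6J mice aged 52 weeks, in 5 groups. These were tumour tissue of Abcb11-/- females (n = 3), non-tumour liver of Abcb11-/- females (n = 3), liver of wild-type females (n = 2), liver of Abcb11-/- males (n = 3) and liver of wild-type males (n = 3). Abcb11 encodes the bile salt export pump, by which hepatocytes move bile salts into bile, and its loss causes chronic retention of bile salts in the liver. The labels give neither the deleted exons of Abcb11 nor whether a tumour and a non-tumour sample with the same number came from 1 animal. The wild-type females carry the numbers 2 and 3, and a number 1 is not analysed here. Replicates are separate samples by their labels only, so each p-value measures the spread between these samples.

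Glutathione S-transferases are soluble enzymes that join the tripeptide glutathione to electrophilic compounds, which makes them more soluble and ready for export. They work as dimers, are grouped in classes by sequence, and the alpha, mu and pi classes are abundant in rodent hepatocytes. The conjugates leave the cell through ABCC transporters and are trimmed to mercapturic acids. Several Gst genes of rodents are known targets of NRF2 (gene Nfe2l2), a transcription factor that pairs with small MAF proteins on antioxidant response elements, and some also respond to the receptors CAR and PXR.

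Promoters are shown for Gsta3, Gsta1, Gstm3 and Gstp1. Gsta3 was the 1 gene of the 9 with a window that held the motif searched, TGACNNNGC, a form of the antioxidant response element core. Gsta1 and Gstm3 had the largest fold changes in knockout livers. Gstp1 was the 1 gene of the set called higher in wild-type males than in wild-type females. Sequences are from RefSeq (GRCm38.p6), run 5′ to 3′ on the gene's strand, and cover 250 bases before and 50 bases from the annotated start. Capitals mark the motif. The Gsta3 window is chr1:21240335-21240634 (plus strand), that of Gsta1 is chr9:78230419-78230718 (plus strand), that of Gstm3 is chr3:107969125-107969424 (minus strand) and that of Gstp1 is chr19:4037863-4038162 (minus strand).
Gsta3: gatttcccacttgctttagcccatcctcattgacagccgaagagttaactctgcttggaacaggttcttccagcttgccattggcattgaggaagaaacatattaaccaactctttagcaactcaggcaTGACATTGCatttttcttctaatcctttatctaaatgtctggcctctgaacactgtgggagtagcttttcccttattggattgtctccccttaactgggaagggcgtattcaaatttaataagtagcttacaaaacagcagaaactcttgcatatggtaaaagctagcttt
Gsta1: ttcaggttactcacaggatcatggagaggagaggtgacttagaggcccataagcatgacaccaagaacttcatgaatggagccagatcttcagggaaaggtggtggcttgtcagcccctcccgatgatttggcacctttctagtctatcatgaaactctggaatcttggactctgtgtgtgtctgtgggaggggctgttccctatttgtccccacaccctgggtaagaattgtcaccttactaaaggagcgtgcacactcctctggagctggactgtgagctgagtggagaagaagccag
Gstm3: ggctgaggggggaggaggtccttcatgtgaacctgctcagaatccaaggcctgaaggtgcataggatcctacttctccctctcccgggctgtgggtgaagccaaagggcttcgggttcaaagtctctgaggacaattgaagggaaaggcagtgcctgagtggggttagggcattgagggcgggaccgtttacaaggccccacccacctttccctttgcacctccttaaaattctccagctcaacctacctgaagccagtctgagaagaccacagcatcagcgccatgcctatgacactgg
Gstp1: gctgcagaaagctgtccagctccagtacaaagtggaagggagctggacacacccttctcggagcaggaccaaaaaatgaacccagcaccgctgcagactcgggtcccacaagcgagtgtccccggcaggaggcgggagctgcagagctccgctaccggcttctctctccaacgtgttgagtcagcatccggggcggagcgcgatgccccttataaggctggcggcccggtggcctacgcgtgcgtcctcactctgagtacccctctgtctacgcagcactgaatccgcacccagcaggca

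The motif searched was TGACNNNGC on both strands, which can overlap an AP-1 site. Forms that begin with TGAG in place of TGAC, such as the TGAGTCAGC in the Gstp1 window above, were not searched. Promoter windows were matched for 9 of the 10 genes, all but Gsta4, and 1 of the 9 held the motif: TGACATTGC in Gsta3, beginning 121 bases before the start. Over all annotated promoters of 300 bases, 12.4% of 32851 windows and 14% of 27025 genes held it. The match is a description of letters in this window, and the windows without it say nothing about binding elsewhere.

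In the annotation of the count table (GRCm38) the 4 mu genes lie side by side on the minus strand of chromosome 3: Gstm3 from 107963696 to 107969283, Gstm2 from 107981702 to 107986453, Gstm1 from 108012255 to 108017973 and Gstm4 from 108040408 to 108044894. On chromosome 9 are Gsta4 (78182774 to 78209349, plus strand), Gsta1 (78230656 to 78242684, plus strand) and Gsta2 (78331018 to 78355788, minus strand), whereas Gsta3 stands apart on chromosome 1 (21240589 to 21265661, plus strand). Gstp1 lies on chromosome 19 (4035407 to 4037921, minus strand) and Gstt1 on chromosome 10 (75783813 to 75798584, minus strand). All 10 are protein-coding, and in GENCODE M21 none shares exon bases with another gene. Some have near-identical copies, however, so that a read cannot always be assigned. Of the 125-base windows in its transcripts, Gsta1 shared 75.4% with another gene (mostly Gm3776, with a longest common run of 565 bases), Gsta2 23.8%, Gstp1 21.8% (Gstp2, longest run 423 bases, and the pseudogene Gstp-ps, 303 bases), Gstm3 6.49% and Gstm1 1.07%. The other 5 shared none. Values of Gsta1, Gsta2 and Gstp1 are therefore uncertain in how reads were split, and sums with their copies are given with the results.

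Library totals ran from 14745140 to 19480538 counts. Abcb11 itself stood at 34.3, 23.2 and 18 CPM (counts scaled to library size with TMM factors) in the 3 tumours, 21.1, 35.9 and 17.9 in non-tumour knockout livers and 76.5, 62.1 and 104 in knockout males, against 270.2 and 489 in wild-type females and 307, 322 and 298 in wild-type males, so every knockout library lay below every wild-type library. Hepatocyte markers (7 of 8 matched, among them Alb and Ttr) summed to between 29917 and 87900 CPM in all libraries. The sum was 53734.5 to 87900 CPM in tumours and 47686 to 85292 CPM in non-tumour livers, against 45875 to 51745 CPM in wild-type females. Tumours did not overlap wild-type females. In knockout males it was 60371 to 74619 CPM, against 29917 to 65166.5 CPM in wild-type males. None of the 7 markers was called in these 3 comparisons. A list of 8 cholangiocyte markers summed to 731 to 1407 CPM in tumours and 474 to 620 CPM in non-tumour knockout livers, against 178 to 319 CPM in wild-type females, and to 88.1 to 385 CPM in knockout males, against 92.0 to 120.1 CPM in wild-type males. Cftr alone of these was at 0 in a library, in both male groups. The 8 macrophage markers summed to 199 to 383 CPM in tumours, 206 to 470.1 CPM in non-tumour livers and 114 to 115 CPM in wild-type females, and to 165 to 335 CPM in knockout males, against 216 to 241 CPM in wild-type males. The 8 markers of pericentral hepatocytes summed to 524, 723 and 2901 CPM in the tumours and to at least 1952 CPM in every other library. The 8 stellate cell and fibroblast markers summed to 269 to 725 CPM in tumours and 272 to 329 CPM in non-tumour livers, against 163 to 235 CPM in wild-type females without overlap, and to 132 to 328 CPM in knockout males, against 198 to 300.2 CPM in wild-type males. The 8 endothelial markers summed to 235 to 309 CPM in tumours and 166 to 226 CPM in non-tumour livers, against 186 to 206 CPM in wild-type females. In knockout males the endothelial sum was 148 to 193 CPM, against 246 to 358 CPM in wild-type males without overlap. Of the 8 endothelial markers 4 were called lower there, as were 2 of the 8 cholangiocyte markers, Krt7 and Mmp7, beside 6.32% of all tested genes. None of either list was called higher. In tumours 4 cholangiocyte and 2 endothelial markers were called higher than in wild-type females and none lower, beside 3.94% and 5.67% of all tested genes. Macrophage markers called higher were C1qa, Cd5l and Csf1r in non-tumour livers, C1qa and Csf1r in tumours, and Cd5l and Vsig4 in knockout males. None was called lower. All tested genes called higher were 1.9% in non-tumour livers and 14.3% in knockout males. Mmp7 was called higher in non-tumour livers. Of the pericentral markers Tbx3 was called lower in non-tumour livers, Axin2 and Tbx3 lower in tumours, and Cyp1a2 higher in knockout males. Wild-type male 3 stood apart, with 459 CPM over 8 lymphocyte markers against at most 80.5 CPM in every other library. In whole tissue, fewer cells of a type and less RNA per cell cannot be told apart, and the part of these cell mixtures in the results below was not tested.

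Summed over the 10 genes, every knockout library lay above every wild-type library. Per length the sums of wild-type males and wild-type females overlapped, whereas the sums of plain CPM did not, at 762 to 1440.2 CPM in wild-type males and 1462 to 2049 CPM in wild-type females. The sum of their levels per length was 4331 ± 1981 CPM per kb in tumours, 3927 ± 588 in non-tumour knockout livers and 998 ± 268 in wild-type females, and 6852 ± 1880 in knockout males against 1042 ± 380 in wild-type males (SD). The lowest knockout library, tumour 1, had 2756 CPM per kb and the highest wild-type library, male 2, had 1369, so knockout and wild-type libraries did not overlap. What made up the sum differed between the wild-type sexes. Gstm1, the main mu class enzyme of mouse liver, contributed 59.2% ± 3.6 in wild-type females and 28.6% ± 5.2 in wild-type males, where Gstp1, the pi class enzyme, contributed 58.0% ± 7.9, against 7.94% ± 1.52 in wild-type females. In the 3 knockout groups Gstm1 contributed 56.7% ± 5.0 in tumours, 58.2% ± 2.1 in non-tumour livers and 62.7% ± 4.0 in males, and Gstp1 7.99% ± 3.88, 9.81% ± 3.40 and 7.58% ± 0.75 of the sum in that order. Shares of a sum are not independent of each other.

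**Figure D1:**
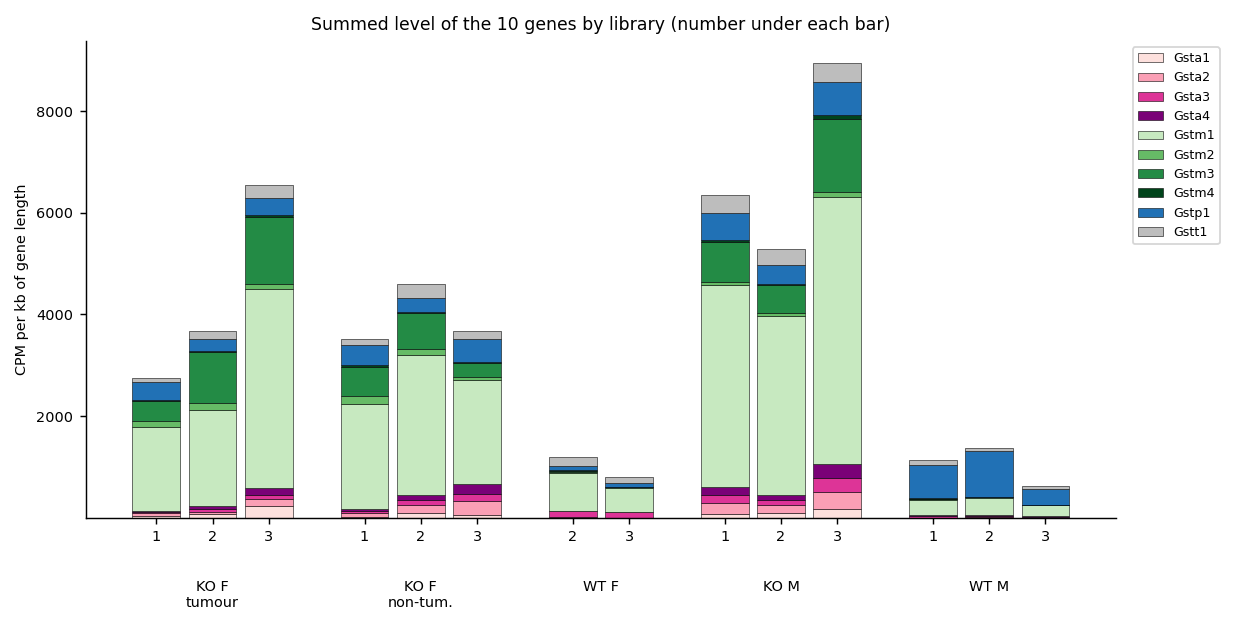
Summed level of the 10 genes in each of 14 libraries, in CPM per kb of gene length (vertical axis), with bars grouped by knockout (KO) and wild-type (WT) females (F) and males (M), numbered by replicate and divided by gene. Every knockout bar is taller than every wild-type bar, and Gstp1 is the largest part of each wild-type male bar.

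By level per length, Gstm1 stood first in 4 of the 5 groups: 2474 ± 1241 CPM per kb in tumours, 2291 ± 403 in non-tumour livers, 595 ± 194 in wild-type females and 4246 ± 892 in knockout males. In each of these groups its range lay above that of the next gene. Wild-type males were the exception, with Gstp1 at 624 ± 294 CPM per kb and Gstm1 at 285 ± 62, whose ranges overlapped. Gstm3, a further mu class enzyme, came second in the 3 knockout groups, at 905 ± 477 CPM per kb in tumours, 517 ± 227 in non-tumour livers and 923 ± 458 in knockout males. It overlapped Gstp1 as the third gene in non-tumour livers and knockout males but not in tumours. In wild-type livers Gstm3 ranked seventh in females (12.2 ± 6.8 CPM per kb) and ninth in males (3.85 ± 2.05). Gsta1 stood last in both wild-type groups, at 0.326 ± 0.461 CPM per kb in females and 1.52 ± 1.69 in males, and Gstm4 last in the 3 knockout groups, at 26.3 ± 5.3, 31.0 ± 4.8 and 52.1 ± 27.3 CPM per kb in tumours, non-tumour livers and males. From the fourth place down, neighbours in the order overlapped throughout the knockout groups.

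**Figure D2:**
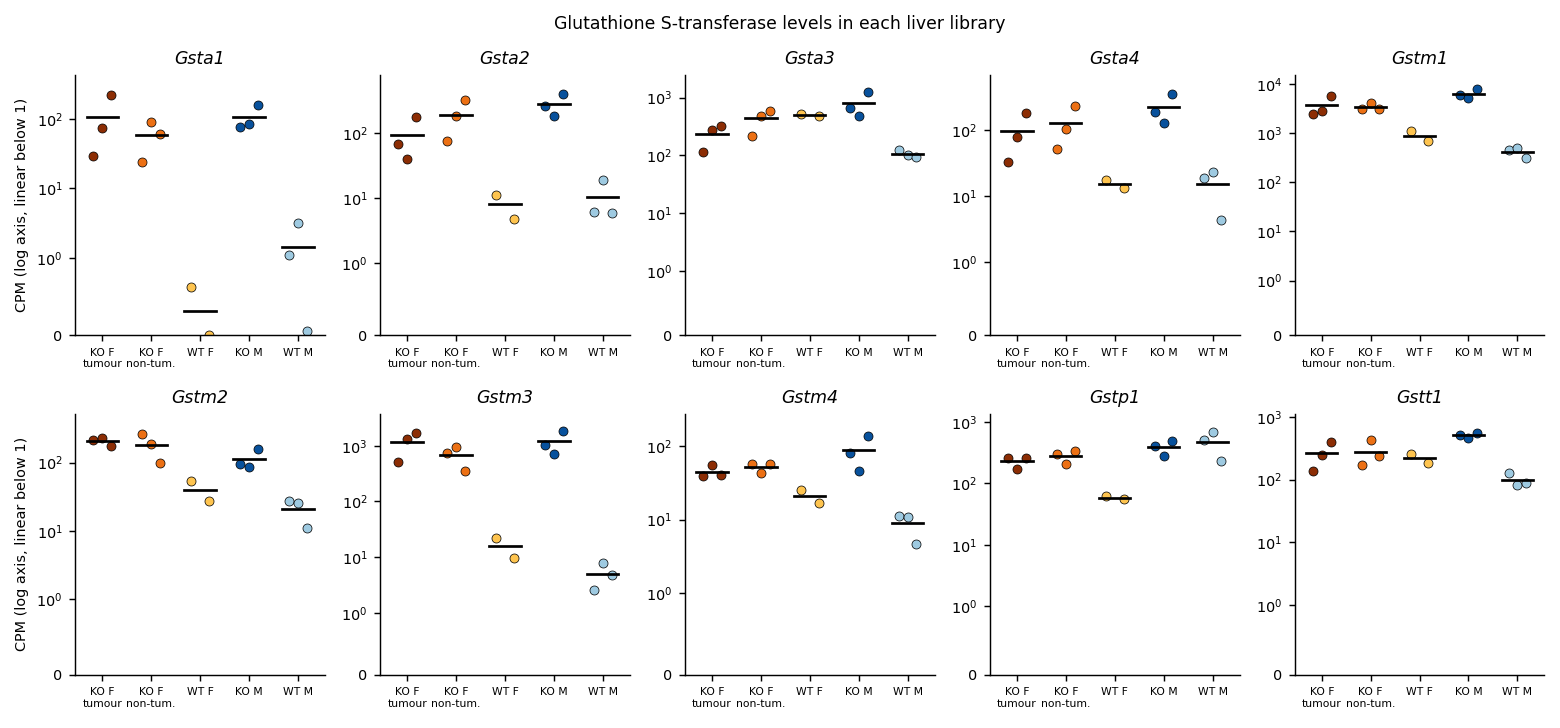
Level of each gene in every library, in TMM-scaled CPM on an axis that is logarithmic above 1 and linear below it. Points are libraries and black lines group means. Gstm3 lies at or above 353 CPM in all knockout (KO) libraries and at or below 22.3 CPM in all wild-type (WT) libraries, while Gstp1 is lowest in wild-type females.

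In the non-tumour livers of knockout females, 6 of the 10 genes rose over wild-type females and none fell: Gsta1, Gsta2, Gstm1, Gstm2, Gstm3 and Gstp1. Over all tested genes, 1.9% were called higher and 2.26% lower in this comparison. The median log2 fold change of the 10 was 2.23, beside -0.00016 for all tested genes. The test was edgeR's quasi-likelihood F test with Benjamini-Hochberg adjustment over all tested genes, a gene being called at an adjusted p under 0.05, and each log2 fold change is given with an SE that is its size divided by the square root of the F statistic, so it is no separate measure of error. The largest log2 fold changes were those of Gsta1, Gstm3 and Gsta2. Gsta1, an alpha class enzyme whose mouse form is known as inducible, had 24.3, 90.5 and 60.2 CPM in non-tumour knockout livers, against 0.624 and 0 CPM in wild-type females (10 and 0 counts). Its log2 fold change was 7.65 ± 1.64 (adjusted p = 0.0309) and rests on almost no wild-type counts. Together with Gsta2 and the copies Gm3776 and Gm10639, the sum was 270.1 ± 151.2 CPM in non-tumour livers and 8.36 ± 5.02 CPM in wild-type females, a log2 ratio of 5.01, with no overlap. Both Gm3776 and Gm10639 were without a count in both wild-type females. Set against a floor of 3 counts in each library, even the lowest non-tumour library was at least 31.1-fold higher for Gm3776. For Gm10639 it was at least 2.52-fold higher.

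Gsta2, the other alpha class enzyme with a near-identical copy, had 76.0, 179 and 320.5 CPM in non-tumour knockout livers, against 11.3 and 4.82 CPM in wild-type females (log2 fold change 4.58 ± 0.91, adjusted p = 0.0212). Gsta4, which acts on the lipid peroxidation product 4-hydroxynonenal, had 51.6, 103 and 232 CPM, against 17.2 and 13 CPM in wild-type females (3.09 ± 0.91, adjusted p = 0.0765). Its groups did not overlap and it missed the threshold here, but it was called by DESeq2 (adjusted p = 0.00675), by limma-voom (adjusted p = 0.0390), and by edgeR without the low-count filter or on the compared groups alone (adjusted p = 0.0357). Gsta3, which conjugates aflatoxin epoxide in mice, had the highest level per length of the alpha class in wild-type females and did not pass the test. It had 219.7, 489.7 and 599 CPM in non-tumour knockout livers, against 525 and 478 CPM in wild-type females (-0.20 ± 0.49, adjusted p = 0.854), with overlap between the groups. The alpha class sum accordingly overlapped, at 815 ± 422 CPM in non-tumour livers and 525 ± 41 CPM in wild-type females.

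In the mu class, Gstm3 had 740.3, 939.8 and 353 CPM in non-tumour knockout livers, against 22.3 and 9.64 CPM in wild-type females (5.41 ± 0.78, adjusted p = 0.00376). Every knockout library was far above both wild-type libraries, and knockout number 3 was the lowest of its group. Gstm1 had 3042, 4060.5 and 3022 CPM, against 1079 and 675 CPM in wild-type females (1.94 ± 0.45, adjusted p = 0.0298). Gstm2 had 260.2, 191 and 99.0 CPM, against 53.1 and 26.9 CPM in wild-type females (2.20 ± 0.49, adjusted p = 0.0256). Non-tumour liver 3 was thus lowest of its group in Gstm2 and Gstm3 and highest in Gsta2, Gsta3 and Gsta4. Gstm4 had 57.3, 43.3 and 57.9 CPM, against 25.5 and 16.7 CPM in wild-type females (1.33 ± 0.43, adjusted p = 0.0920), without overlap and without passing the test, though it was called by DESeq2 (adjusted p = 0.0308). Gstp1 had 302, 206 and 338 CPM, against 61.7 and 55.2 CPM in wild-type females (2.27 ± 0.44, adjusted p = 0.0170). With Gstp2 and Gstp-ps the pi sum gave a log2 ratio of 2.22, so the direction was the same with the copies included. Gstt1, which conjugates small halogenated compounds, had 171, 420.0 and 236 CPM, against 253 and 183 CPM in wild-type females (0.34 ± 0.43, adjusted p = 0.701), and its groups overlapped. In all, 8 of the 10 genes were higher in every non-tumour library than in both wild-type libraries, as were 23.2% of all tested genes.

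This comparison leans on few wild-type libraries. Without wild-type female 3 no gene of the 10 was called (edgeR, adjusted p = 0.104 for Gstm3), without wild-type female 2 only Gstm3 was, without non-tumour liver 1 Gstp1, Gsta2 and Gstm3 were, and without non-tumour liver 3 Gstm2 and Gstm3 were. Non-tumour liver 2 could be left out with all 6 still called. Without wild-type female 2 the fitted value of Gsta1 was 13.02, as the wild-type library left had no counts. All 6 kept their direction in each of these fits, where a lone wild-type library is assumed to vary like the other groups.

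**Figure D3:**
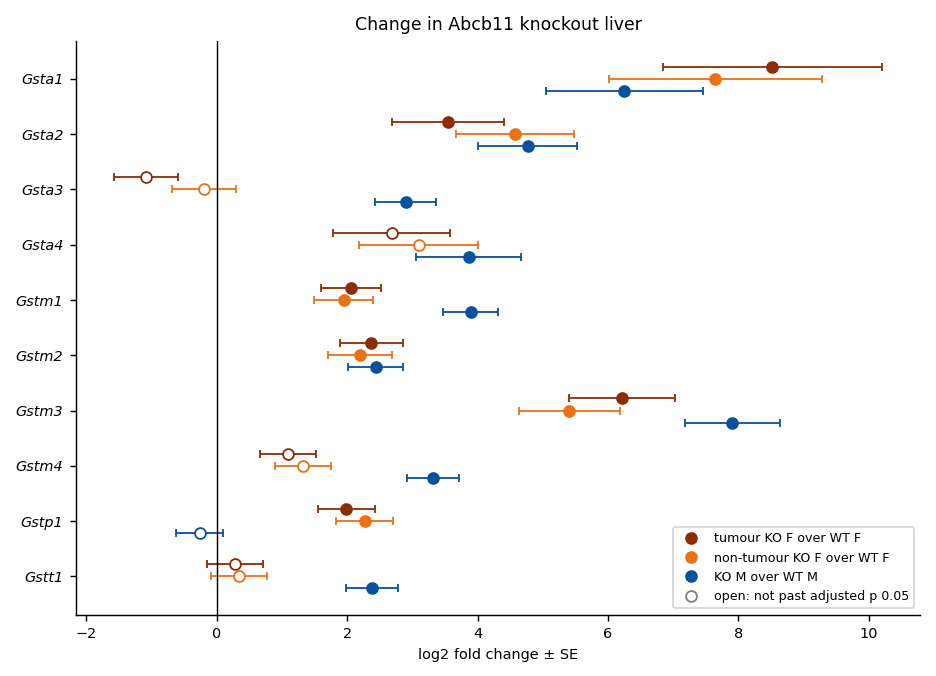
Log2 fold change of each gene (horizontal axis) with its SE for knockout (KO) over wild-type (WT) liver in 3 comparisons, 2 of which share the wild-type females (F). Filled points passed an edgeR adjusted p of 0.05. Gsta3, Gsta4, Gstm4 and Gstt1 are filled in males (M) alone and Gstp1 in females alone.

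In the tumours of knockout females the same 6 genes rose over wild-type females and none fell, where 3.94% of all tested genes were called higher and 5.67% lower. The wild-type libraries are those of the comparison above, so the lists are not independent. Gstm3 had 507, 1315 and 1737 CPM in tumours, against 22.3 and 9.64 CPM in wild-type females (6.22 ± 0.81, adjusted p = 0.000691). Gsta1 had 29.5, 74.6 and 217 CPM, against 0.624 and 0 CPM (8.52 ± 1.68, adjusted p = 0.0128), and tumour 3 stood highest. Gsta2 had 66.8, 39.8 and 176 CPM in tumours, against 11.3 and 4.82 CPM in wild-type females (3.55 ± 0.86, adjusted p = 0.0235). These 3 genes were above the wild-type range in each tumour, with a wide spread among tumours. Gstm1 had 2424, 2764 and 5746 CPM, against 1079 and 675 CPM in wild-type females (2.05 ± 0.46, adjusted p = 0.0134). Gstm2 had 213, 234 and 175 CPM, against 53.1 and 26.9 CPM (2.37 ± 0.49, adjusted p = 0.00935), and Gstp1 had 259.6, 174 and 262 CPM, against 61.7 and 55.2 CPM (1.99 ± 0.43, adjusted p = 0.0118). Both of these were even among the 3 tumours.

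Gsta3 lay below the wild-type range in all 3 tumours, with 114, 270.5 and 324 CPM against 525 and 478 CPM in wild-type females, and did not pass the test (-1.09 ± 0.48, adjusted p = 0.166). It was the 1 gene of the 10 lower without overlap, as were 27.6% of all tested genes, while 8 were higher without overlap, as were 24.8% of all tested genes. Gsta4 (2.68 ± 0.90, adjusted p = 0.0790), Gstm4 (1.09 ± 0.43, adjusted p = 0.117) and Gstt1 (0.27 ± 0.43, adjusted p = 0.730) did not pass either. The median log2 fold change of the 10 was 2.21, beside 0.03 for all tested genes. Without wild-type female 3 the call of Gstm3 was the only one, without wild-type female 2 those of Gstm1, Gstm2 and Gstm3 remained, and without tumour 1 Gsta4 was called as well.

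Tumour and non-tumour tissue of knockout females did not differ past the threshold in any of the 10 genes, nor in any gene tested (0% of 17874, edgeR). None of the 10 reached an unadjusted p of 0.05 either, beside 1217 of the 17874 tested genes, a share at which a set of 10 can hold none. DESeq2 and limma-voom called 0 of the 10, and 29 and 0 of all genes. Gsta3 differed most evenly from the non-tumour sample with the same number: the log2 difference was -0.95, -0.86 and -0.89 for numbers 1, 2 and 3 (fitted log2 fold change -0.89 ± 0.44, adjusted p = 0.780). The ranges of its 2 groups still overlapped, 114 to 324 CPM in tumours and 219.7 to 599 CPM in non-tumour livers. Gstp1 and Gsta4 were also lower in the tumour at each number, with Gstp1 at -0.22, -0.24 and -0.37 and Gsta4 at -0.66, -0.38 and -0.37, and Gsta2 at -0.19, -2.17 and -0.86. The other 6 genes went up at some numbers and down at others. Gstm3 spread most, at -0.55, 0.49 and 2.30, and number 3 gave the highest difference for Gsta1, Gstm1, Gstm2, Gstm3 and Gstt1. A fit with the number as a replicate block also called 0 of the 10. The summed pericentral markers ran from 524 to 2901 CPM in tumours and from 2956 to 4630 CPM in non-tumour livers, and the cholangiocyte markers from 731 to 1407 CPM and from 474 to 620 CPM; their part in these values was not tested. No gene was separated without overlap in either direction, where 6.38% of all tested genes were higher and 7.64% lower.

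**Figure D4:**
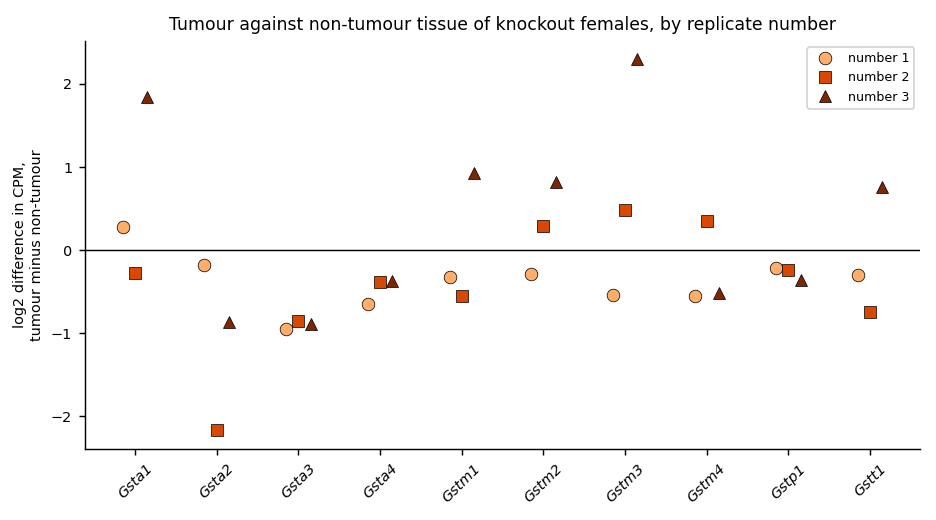
Log2 difference in CPM between tumour and non-tumour tissue of knockout females for each gene, 1 point per replicate number (log2 CPM with a prior count of 2). Gsta2, Gsta3, Gsta4 and Gstp1 lie below 0 at all 3 numbers, and the other genes lie on both sides; no gene passed the test.

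In male livers the loss of Abcb11 went with higher levels of every gene but Gstp1: 9 of the 10 rose and none fell. Over all tested genes 14.3% were called higher and 6.32% lower. The median log2 fold change of the 10 was 3.59, beside 0.11 for all tested genes, a shift that was 0 under RLE or upper-quartile scaling and against which each of the 9 changes is large. Gstm3 had 1024, 725 and 1882 CPM in knockout males, against 2.52, 7.87 and 4.74 CPM in wild-type males (7.91 ± 0.73, adjusted p = 2.39e-05). Gstm1 had 5862, 5182 and 7719 CPM, against 456, 488 and 317 CPM in wild-type males (3.90 ± 0.42, adjusted p = 5.67e-05). Gstm4, a further mu class enzyme, had 81.7, 46.3 and 139 CPM, against 11.4, 10.8 and 4.69 CPM (3.32 ± 0.41, adjusted p = 0.000136). All 3 were separated by a wide gap, and knockout male 3 was highest in each. Gstm2 had 95.4, 86.6 and 160.1 CPM in knockout males, against 27.2, 25.2 and 10.8 CPM in wild-type males (2.44 ± 0.42, adjusted p = 0.00126).

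All 4 alpha class genes rose in males. Gsta1 had 76.4, 84.1 and 159 CPM in knockout males, against 1.10, 3.22 and 0.0505 CPM in wild-type males, the last of these being 1 count (6.25 ± 1.203, adjusted p = 0.00507). Gsta2 had 258, 185 and 396 CPM, against 6.08, 18.9 and 5.95 CPM in wild-type males (4.77 ± 0.76, adjusted p = 0.00126). The sum of Gsta1, Gsta2 and their copies was 422 ± 165 CPM in knockout males and 12.5 ± 9.4 CPM in wild-type males, a log2 ratio of 5.07. Gsta3 had 654, 476 and 1256 CPM, against 125, 103 and 92.5 CPM in wild-type males (2.90 ± 0.47, adjusted p = 0.000900), and Gsta4 had 189.8, 127 and 345 CPM, against 18.6, 22.6 and 4.34 CPM (3.86 ± 0.80, adjusted p = 0.00610). The theta gene Gstt1 had 518, 468 and 559 CPM in knockout males, against 126, 82.7 and 86.9 CPM in wild-type males (2.39 ± 0.40, adjusted p = 0.00106). None of these 5 genes overlapped between the groups.

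Gstp1 was the exception, with 405, 281 and 493 CPM in knockout males, against 503, 678 and 236 CPM in wild-type males (-0.27 ± 0.36, adjusted p = 0.637). The ranges overlapped, and wild-type male 3, the library with many lymphocyte transcripts, was the lowest. Without that library the log2 fold change of Gstp1 was -0.71 (adjusted p = 0.120), so it did not pass in either fit, and with Gstp2 and Gstp-ps the log2 ratio was -0.54. The 9 genes called were also those whose libraries did not overlap, as were 23.1% of all tested genes. All 9 calls held under each alternative scaling, filter, tool and left-out library.

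The effect of the knockout differed between the sexes for 5 of the 10 genes, as tested by an interaction contrast (non-tumour females minus males). Gstp1 was called higher and Gsta3, Gstm1, Gstm4 and Gstt1 lower in this contrast, beside 2.2% of all tested genes called higher and 8.68% lower. Of all genes called in this contrast 20.2% were higher, and 32.7% were with upper-quartile scaling. For Gstp1 the log2 fold change was 2.27 in females and -0.27 in males, a difference of 2.53 ± 0.55 (adjusted p = 0.0101). For Gsta3 it was -0.20 in females and 2.90 in males, a difference of -3.10 ± 0.66 (adjusted p = 0.00912). Thus a change with the knockout was called for Gstp1 in females alone and for Gsta3 in males alone. The missing calls do not show that these genes were unchanged in the other sex. Gstm1 rose in both sexes, by 1.94 in females and 3.90 in males on the log2 scale, with a difference of -1.95 ± 0.56 (adjusted p = 0.0387). Gstm4 had a difference of -1.99 ± 0.56 (adjusted p = 0.0339) and Gstt1 of -2.05 ± 0.57 (adjusted p = 0.0326). Gstm3 rose in both sexes and its difference of -2.50 ± 0.82 did not pass (adjusted p = 0.0625), nor did those of Gsta1 (1.40 ± 1.86, adjusted p = 0.669), Gsta2 (-0.19 ± 0.99, adjusted p = 0.931), Gsta4 (-0.77 ± 1.08, adjusted p = 0.685) and Gstm2 (-0.24 ± 0.60, adjusted p = 0.830). The Abcb11 transcript itself was called in this contrast (-1.99 ± 0.49, adjusted p = 0.0181), with log2 fold changes of -3.93 in females and -1.94 in males. It was higher in knockout males than in non-tumour knockout females (1.69 ± 0.33, adjusted p = 0.0404). Whether this bears on the differences above was not tested.

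The Gsta3 call held in all 11 fits that left out a library and the Gstp1 call in all but that without wild-type female 3, where its adjusted p was 0.0703. The other 3 calls changed with more settings. With the replicate number as a block the only calls were Gstp1 and Gsta3. The Gstm1 call was also lost with RLE scaling (adjusted p = 0.0543), upper-quartile scaling (0.0562), no low-count filter (0.0810) and 1 CPM required in 3 libraries (0.0528), and the last of these lost Gstm4 as well. Gstm3 was called by DESeq2 (adjusted p = 0.0213) and without the filter (0.00121). Without 1 library the calls were Gsta3 alone (wild-type female 3), Gstp1 and Gsta3 (wild-type female 2, non-tumour liver 1 or 3, wild-type male 3, knockout male 1 or 3), these with Gstm3 (wild-type male 2), with Gstm4 and Gstt1 (wild-type male 1), with Gstm1 and Gstt1 (non-tumour liver 2), or all 5 (knockout male 2).

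Between wild-type males and wild-type females, Gstp1 was higher and Gsta3 and Gstm4 were lower in males, beside 7.03% of all tested genes called higher and 16.1% lower. Gstp1 had 503, 678 and 236 CPM in wild-type males, against 61.7 and 55.2 CPM in wild-type females (3.02 ± 0.45, adjusted p = 0.000483). With its copies the sum was 777 ± 397 CPM in wild-type males and 82.4 ± 19.2 CPM in wild-type females (log2 ratio 3.24). Gsta3 had 125, 103 and 92.5 CPM in wild-type males, against 525 and 478 CPM in wild-type females (-2.23 ± 0.49, adjusted p = 0.00538). Neither gene overlapped between the sexes. The Gstm4 difference of -1.24 ± 0.41 (adjusted p = 0.0432) was lost whenever 1 of the 5 libraries was left out, and with RLE scaling (adjusted p = 0.0663), upper-quartile scaling (0.0547), 1 CPM required in 3 libraries (0.0746) or the compared groups alone (0.110). Gstm1 (-1.06 ± 0.42, adjusted p = 0.0790), Gstm3 (-1.66 ± 0.61, adjusted p = 0.0619) and Gstt1 (-1.15 ± 0.42, adjusted p = 0.0610) had lower values in males and did not pass, although Gstm3 was called without wild-type male 2. Gsta4 overlapped, at 15.2 ± 9.6 CPM in wild-type males and 15.1 ± 3.0 CPM in wild-type females. Without overlap, 1 gene was higher and 5 were lower in males, as were 17.5% and 31.5% of all tested genes. The median over all tested genes was -0.12 and that of the 10 was -0.99.

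Between knockout males and the non-tumour livers of knockout females no gene of the 10 passed the test, beside 0.392% of all tested genes called in either direction. DESeq2 and limma-voom called 0 of the 10 as well. An unadjusted p under 0.05 was reached by 2, Gstm1 and Gstt1, beside 1732 of the 17874 tested genes. Gstm1 had 5862, 5182 and 7719 CPM in knockout males, against 3042, 4060.5 and 3022 CPM in non-tumour females (0.89 ± 0.38, adjusted p = 0.447). Gstt1 had 518, 468 and 559 CPM, against 171, 420.0 and 236 CPM in non-tumour females (0.90 ± 0.38, adjusted p = 0.443). These 2 were higher in every male library, as were 9.26% of all tested genes. Gstp1, whose wild-type levels differed by 3.02, differed here by 0.48 ± 0.36 (adjusted p = 0.784), and Gsta3, whose wild-type levels differed by -2.23, differed by 0.87 ± 0.44 (adjusted p = 0.580). A p above the threshold does not show that the sexes were alike.

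**Figure D5:**
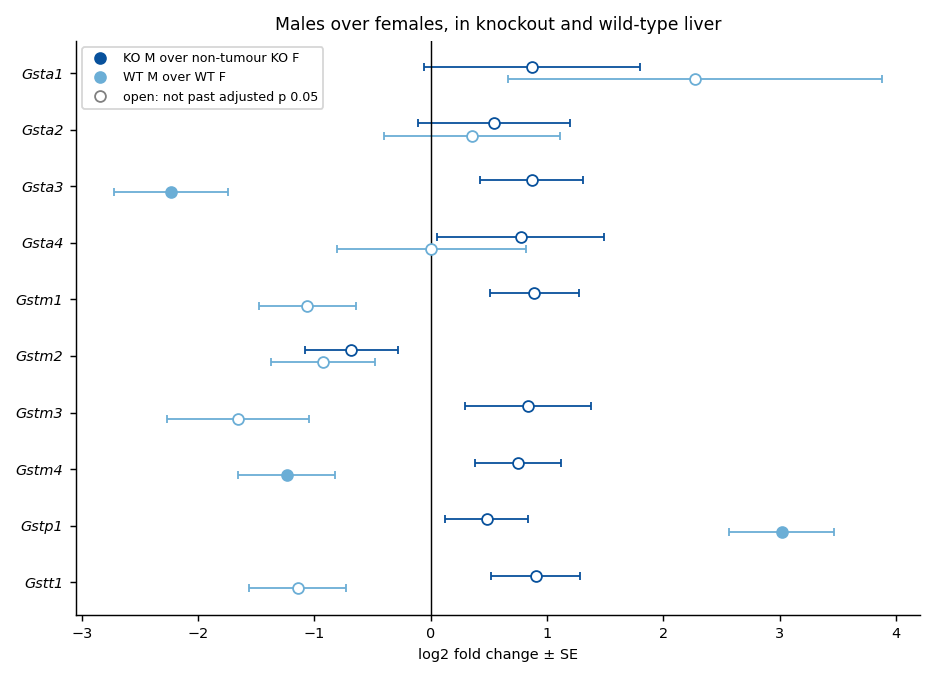
Log2 fold change of males (M) over females (F) with its SE for each gene, in knockout (KO) non-tumour and in wild-type (WT) liver. Filled points passed an edgeR adjusted p of 0.05: Gstp1 above 0 and Gsta3 and Gstm4 below 0 in wild-type liver, and none in knockout liver.

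The share of Gstp1 among its copies overlapped among the female groups and was higher in every knockout male than in any wild-type male. Gstp1 held 62.9% to 72.8% of the summed CPM of Gstp1, Gstp2 and Gstp-ps in tumours, 69.3% to 78.9% in non-tumour livers and 64.3% to 80.1% in wild-type females, and 70.7% to 75.6% in knockout males against 59.6% to 67.1% in wild-type males. Within the Gsta1 group the split differed by genotype. Gsta1 held 27.5% to 62.7% of the sum with Gsta2, Gm3776 and Gm10639 in tumours, 14.9% to 30.3% in non-tumour livers and 0% to 5.24% in wild-type females, and 20.7% to 28.9% in knockout males against 0.763% to 14.3% in wild-type males.

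Of the other glutathione S-transferase genes, 17 of 19 were tested. The counts for these and the lists that follow stand beside the shares of all tested genes: 1.9% higher and 2.26% lower in non-tumour livers, 3.94% higher and 5.67% lower in tumours, and 14.3% higher and 6.32% lower in knockout males. In non-tumour livers of knockout females 1 rose over wild-type females, the processed pseudogene Gstp-ps (2.14 ± 0.49, adjusted p = 0.0273), and none fell. Of its 125-base windows 35.3% were shared with Gstp1, so its reads are not cleanly separate from those of Gstp1. In tumours 3 rose and none fell: Gstp-ps, Gstm6 and the microsomal enzyme Mgst3, at 192 ± 119 CPM in tumours and 38.8 ± 8.7 CPM in wild-type females (2.31 ± 0.60, adjusted p = 0.0295). In knockout males 8 of the 17 rose over wild-type males, beside 14.3% of all tested genes, and none fell: Gstm2-ps1, Gstm6, Gstm7, Gstt2, Gstt3, Gstz1, Mgst1 and Mgst3. Their log2 fold changes ran from 0.80 for Gstz1 to 4.99 for Gstm2-ps1, which is also a processed pseudogene. Gstm6 had the smallest p, at 103 ± 12.5 CPM in knockout males and 20.4 ± 3.6 CPM in wild-type males (2.33 ± 0.25, adjusted p = 5.05e-05), and Gstt3 the largest fold among the theta genes, at 71.8 ± 44.8 CPM and 5.69 ± 3.23 CPM (3.65 ± 0.79, adjusted p = 0.00842). The copies Gm3776 and Gm10639 carry no Gst symbol and are not in these counts. Gm3776 was called higher in non-tumour livers (adjusted p = 0.0243), tumours (0.0106) and knockout males (0.00516). Gm10639 was called higher in tumours (adjusted p = 0.0483) and knockout males (0.011) but not in non-tumour livers (0.0852).

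Of 12 genes of glutathione synthesis and recycling, 1 rose in non-tumour knockout livers over wild-type females, Gsr, the glutathione reductase, at 59.1 ± 23.4 CPM and 23.6 ± 3.6 CPM (1.33 ± 0.35, adjusted p = 0.0474). Gclc, the catalytic subunit of the rate-limiting ligase, was at 165 ± 18 CPM in non-tumour livers and 347 ± 84 CPM in wild-type females (-1.07 ± 0.30, adjusted p = 0.0600). Gss, the glutathione synthetase, was the 1 that rose in tumours. In knockout males Gclm, the modifier subunit of the ligase, the glutathione-degrading Chac2 and Cth, which makes cysteine, rose, and Oplah fell, so 3 of 12 were higher and 1 was lower beside 14.3% and 6.32% of all tested genes. Cth was at 532 ± 276 CPM in knockout males and 98.9 ± 33.9 CPM in wild-type males (2.43 ± 0.60, adjusted p = 0.0120). Of 7 genes of the mercapturic acid pathway none was called in non-tumour livers, the acylases Acy1 and Acy3 fell in tumours, and Acy3 rose in knockout males (1.15 ± 0.28, adjusted p = 0.00924).

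Of 5 genes for export of glutathione conjugates, none passed in non-tumour livers, where Abcc4 stood at 26.5 ± 19.0 CPM and 5.07 ± 1.30 CPM in wild-type females (2.39 ± 0.66, adjusted p = 0.0583). In tumours Abcc5 rose and Abcc2, the canalicular conjugate pump, fell to 267 ± 54 CPM, against 802 ± 141 CPM in wild-type females (-1.59 ± 0.34, adjusted p = 0.0118). In knockout males Abcc2, Abcc3 and Abcc4 rose, Abcc2 to 545 ± 61 CPM, against 199 ± 42 CPM in wild-type males (1.46 ± 0.32, adjusted p = 0.00546). The interaction contrast for Abcc2 was -2.47 ± 0.47 (adjusted p = 0.00465).

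Among 10 factors and receptors known to act on Gst genes, Ahr, the aryl hydrocarbon receptor, and Nr1i3, which encodes CAR, fell in non-tumour knockout livers and none rose. Nr1i3 was at 67.3 ± 19.5 CPM in non-tumour livers and 249 ± 65 CPM in wild-type females (-1.89 ± 0.37, adjusted p = 0.0170). In tumours Ahr, Arnt, Bach1 and Nr1i3 fell. In knockout males 6 of the 10 rose over wild-type males, beside 14.3% of all tested genes, and none fell: Ahr, Arnt, Bach1, Mafg, Mafk and Nr1i2, which encodes PXR. The transcript of NRF2 itself, Nfe2l2, was not called in any of the 3 (-0.94 ± 0.36 in non-tumour livers, -0.58 ± 0.36 in tumours, 0.52 ± 0.32 in males). Of 12 other NRF2 targets, 4 rose in non-tumour livers (Ephx1, Gpx2, Nqo1 and Srxn1), 7 in tumours and 8 in knockout males, and none fell. Nqo1, a quinone reductase, was at 26.1 ± 4.3 CPM in tumours, 40.9 ± 22.4 CPM in non-tumour livers and 4.77 ± 0.40 CPM in wild-type females, and at 35.8 ± 4.3 CPM in knockout males against 2.38 ± 0.78 CPM in wild-type males. Its log2 fold change was 2.45 ± 0.40, 3.10 ± 0.41 and 3.92 ± 0.37 for tumours, non-tumour livers and males, and each passed the test. Gpx2, a glutathione peroxidase, was without a count in every wild-type library. Against the floor of 3 counts, its lowest tumour value was at least 1.53-fold higher, its lowest non-tumour value at least 7.29-fold higher and its lowest knockout male value at least 19.4-fold higher. Srxn1, which repairs peroxiredoxins, rose in non-tumour livers (2.17 ± 0.39, adjusted p = 0.0126) and was not called in males (0.37 ± 0.32, adjusted p = 0.437), with an interaction contrast of 1.80 ± 0.49 (adjusted p = 0.0289).

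As a description of likeness, each class was set against 7796 genes of at least 10 CPM by Pearson's r of log2 CPM over the 14 libraries, which fall into groups, so that a shared group pattern alone gives a high r. The genes most like Gsta1 were Rnd2, Usmg5, Ext1, Cox7b and Krt8 (r from 0.951 to 0.971). Those most like Gstm3 were Gipc2, Pls1, Slc51b, Tmprss4 and Cox7b (0.957 to 0.979), those most like Gstp1 were Dym, Gpat4, Rpl36, Psmb1 and Txnl1 (0.932 to 0.946), and those most like Gstt1 were Ifih1, Bdh2, Slc46a3, Mme and Rdh11 (0.930 to 0.968). Apart from Cox7b, named for both Gsta1 and Gstm3, the 4 lists held different genes.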

How the data were processed

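Liver RNA of 14 mouse libraries in 5 groups was measured by paired-end sequencing of total RNA extracted with Trizol. Reads were aligned with HISAT2 2.0.5 to GRCm38 and counted per gene with featureCounts 1.5.0-p3, per the submitters' processing notes. The authors deposited unscaled whole-number counts for each gene. FPKM, which the authors computed from length and depth, served here only as a check on the deposited gene lengths. The strand setting, the treatment of reads with several matches and the annotation release are not given in the sources used here. Columns that belong to no listed sample numbered 0.

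Counts were scaled by TMM, filtered with filterByExpr on the 5 groups (17874 of 54532 genes left) and tested in edgeR 4.0.16 (R 4.3.3) with a robust quasi-likelihood F test, 2-sided, with all 14 libraries fitted together and no covariate, adjusted by Benjamini-Hochberg over all tested genes in each of 7 comparisons, at a threshold of 0.05. Adjusted p-values come from edgeR where no tool is named. The common biological coefficient of variation was 0.442. Levels are TMM-scaled CPM, or CPM per kb of deposited gene length where genes are compared; log2 CPM used a prior count of 2. Library totals were 14745140 to 19480538 counts; floors of 3 counts cover counting error only.

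Each result was recomputed with RLE or upper-quartile scaling, without a filter or with 1 CPM required in 3 libraries, with DESeq2 1.42.0 or limma-voom (limma 3.58.1), on the compared groups alone, with a block for replicate number, and leaving out single libraries. The submitters' design text names DESeq2 for their own test. As a check of pairing, deviations from group means over 7740 genes correlated at 0.486, 0.431 and 0.299 between same-numbered tumour and non-tumour libraries. Between tumour and non-tumour libraries of different numbers the values ran from -0.416 to 0.0641. Pairs of a knockout male and a non-tumour female, always different animals, ran from -0.573 to 0.437. As unrelated animals reached values this high, the same-number values cannot show a pairing. The block took the number over all 14 libraries, so it also tied different animals of other groups that carry the same number. The scripts were tested on simulated data in which 200 genes were changed. There 33.7% of 4-fold changes were called for non-tumour against wild-type females, and 38.1% for knockout against wild-type males. Of 2-fold changes 4.12% and 4.17% were called, with 1 false call in each comparison. A gene that was not called may therefore still have changed. In the measured data 743 and 3688 genes were called in these 2 comparisons. The adjustment of p depends on how many genes change, so the simulated rates need not hold for the measured data.

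The genes named are the 10 members, other Gst genes past the threshold against wild type, the 3 genes of each list with the smallest p in non-tumour against wild-type females (and, beside these, called genes that complete a count), Abcb11, Nfe2l2, and the 5 genes most like 1 gene of each class. The members and lists were chosen with earlier results of these data known.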

Additional observations from a re-analysis of the deposited data

Results flagged for a closer look

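The effect of the knockout differed between females (non-tumour liver) and males for 5 of the 10 genes by the interaction contrast, given as the log2 change in females minus that in males. Gstp1 differed by 2.53 and rose in females but was not called in males. Gsta3 differed by -3.10 and rose in males but was not called in females. Gstm1 differed by -1.95 and rose in both sexes. Gstm4 differed by -1.99 and Gstt1 by -2.05, and both were called in males and not in females. Groups held 2 or 3 libraries, so no library was tested as an outlier of its group.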

How the results depend on the processing

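Counts of the 10 genes called stayed within 1.5 times of those reported, in males against males (9), tumour against wild type (5 to 8), tumour against non-tumour (0) and knockout males against knockout females (0), under every scaling, filter, tool, the replicate block and the fit of the compared groups alone. In non-tumour livers against wild-type females these settings gave 6 to 8. For the interaction of knockout and sex the count was 5, against 3 with at least 1 CPM in 3 libraries and 2 with the replicate block, where Gstm1, Gstm4 and Gstt1 had adjusted p of 0.0721, 0.0603 and 0.0583. For wild-type males against wild-type females it was 3, against 6 without a low-count filter and 5 with either DESeq2 or limma-voom. With single libraries left out, the counts ran from 0 to 6 in non-tumour livers against wild-type females, 1 to 7 in tumours against wild-type females, 1 to 5 for the difference between the sexes and 2 to 3 between the wild-type sexes. Gsta1 was not called with limma-voom in non-tumour livers (adjusted p = 0.076), nor Gsta1 and Gsta2 in tumours with the compared groups alone (0.0523 and 0.0531). Gsta4, not called in either comparison with wild-type females, was called by DESeq2 and limma-voom in both (0.00675 and 0.0390 in non-tumour livers, 0.0173 and 0.0468 in tumours). The replicate block changed no call in the comparisons with wild type or between tumour and non-tumour tissue, and ended that of Gstm4 between the wild-type sexes (adjusted p = 0.0750), as did RLE and upper-quartile scaling, the 1 CPM filter and the compared groups alone (0.0547 to 0.110). The Gstm1 call for the interaction was lost in 5 of 8 such settings (0.0528 to 0.0810). The causes of these changes were not tested.

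Directions changed only for genes that were not called. The difference between the sexes for Gsta2 was 0.0052 under upper-quartile scaling, and Gsta4 between the wild-type sexes was -0.38 with limma-voom. With single libraries left out the log2 fold change ran from -0.46 to 0.16 (Gsta3) and -0.10 to 0.63 (Gstt1) in non-tumour livers against wild type, and from -0.16 to 0.58 (Gstt1) in tumours against wild type. Between tumour and non-tumour tissue it ran from -0.38 to 0.33 (Gstm1), -0.13 to 0.52 (Gstm2), -0.16 to 1.34 (Gsta1), -0.50 to 0.37 (Gstt1) and -1.20 to 0.33 (Gsta4). It ran from -0.84 to 0.54 (Gsta2) and -0.52 to 0.32 (Gstm2) for the difference between the sexes, and from -0.32 to 1.07 (Gsta2) and -0.28 to 0.59 (Gsta4) between the wild-type sexes. Over all genes, 20.2% of calls in the contrast between the sexes were higher with TMM and 32.7% with upper-quartile scaling, and of the 10 genes 1 of 4 calls was higher with that scaling. Over all genes 743 were called in non-tumour livers against wild type, against 1739 without a filter, 1942 with DESeq2, 1229 with limma-voom and 480 with the replicate block; 1718 were called in tumours, against 3030 with DESeq2 and 2712 with limma-voom; 3688 in males, against 2262 with the compared groups alone; 1945 for the interaction, against 3039 with DESeq2; 4137 between the wild-type sexes, against 1824 with those groups alone; 70 between knockout males and females, against 700 without a filter, 470 with DESeq2 and 115 with those groups alone; and 0 between tumour and non-tumour tissue, against 338 without a filter, 29 with DESeq2 and 1 with the replicate block. Depth limited Gsta1 in wild-type livers, with at most 45 counts per library.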
